A study of Homo sapiens with 12 samples.

Results

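The genes described are 44 chaperone genes and their regulators: the HSP70 family and its HSP110 relatives, cytosolic and mitochondrial HSP90, the HSP40 (DNAJ) cochaperones, the small heat shock proteins, the mitochondrial chaperonin HSPD1 and HSPE1, the HSP70 regulators HSPBP1 and ST13, and the heat shock factors HSF1 and HSF2. They were picked out by gene symbol, and all 44 were found among the 63677 gene identifiers counted in each sample. RNA-seq was performed on LNCaP cells, an established androgen-responsive prostate cancer line, in 2 versions. A TALEN, an engineered nuclease, had removed the CTG start codon of Bag-1L, the longest product of BAG1, from the Bag-1L KO line, while the start codons of the shorter Bag-1 products were left in place. The other version was a TALEN control line. Both lines were sequenced in full medium with fetal bovine serum (FM), after 72 h of hormone starvation in charcoal-stripped serum followed by 16 h of the ethanol vehicle (EtOH), and after the same starvation and 16 h with 10 nM of the androgen dihydrotestosterone (DHT). By the methods, the starvation medium was also free of phenol red. Each of the 6 groups held 2 replicates. The methods describe clones isolated by serial dilution after transfection, so in these samples loss of Bag-1L and clonal differences between the lines cannot be told apart. Nothing in the sources used here says whether the replicates came from separate cultures, so the p-values measure the spread between these samples.

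HSP70 proteins bind unfolded stretches of client proteins in a cycle driven by ATP. HSP40 proteins deliver the client and start ATP hydrolysis, and nucleotide exchange factors, among them the HSP110 proteins, HSPBP1 and the BAG domain of Bag-1, release ADP so that the client can leave. The androgen receptor passes through this cycle and is then held by HSP90 in the state that binds hormone, while small heat shock proteins hold unfolded clients without ATP and HSF1 activates many of these genes under proteotoxic stress. The comparisons address whether transcripts of this machinery differ with androgen, between full medium and hormone starvation, or between cells with and without Bag-1L.

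Gene counts totalled 20826843 to 30354666 per sample, and 3 counts, taken as the limit of detection, correspond to 0.0988 to 0.144 CPM (counts scaled to a common library total), a limit that covers counting error only. All 10 markers of luminal LNCaP cells, from TMPRSS2 (at least 34.2 CPM) to KRT8 (up to 2145 CPM), were detected in every sample. Of 9 matched markers of basal, stromal and leukocyte cells, KRT5, TP63, DES, PTPRC and CD68 had at most 4 counts in any sample, whereas COL1A1 (15.2 to 38.5 CPM) and ACTA2 (2.05 to 27.0 CPM) were present. Basal KRT14 reached 28 counts (1.25 CPM) and stromal COL3A1 36 counts (1.63 CPM) in their highest samples. The summed list stood at 33.1 to 37.7 CPM in KO DHT against 61.2 to 66.0 in control DHT, at 33.9 to 35.1 against 43.2 to 49.4 in EtOH, and at 19.3 to 20.9 against 20.9 to 22.1 in FM, and its part in the chaperone values was not tested. BAG1 read 1701.5 and 2702.6 normalized counts in control EtOH against 1191.4 and 1103.0 in KO EtOH, and it was lower in KO by 0.94 (log2, SE 0.18, DESeq2 adjusted p = 6.35e-06). It was lower by 1.14 in DHT (2198.9 and 2630.7 against 1075.5 and 1113.6, SE 0.18, adjusted p = 7.71e-09). In FM the difference of 0.43 did not pass (2117.0 and 1967.7 against 1452.2 and 1576.1, adjusted p = 0.0682). These counts cover all BAG1 transcripts and do not separate Bag-1L from the shorter forms. By western blot, the paper reports that the shorter Bag-1 proteins were raised in KO cells. The lower RNA counts therefore do not stand for the level of those proteins. Without control EtOH replicate 2 the EtOH difference was -0.57, under the fold minimum. The replicates of control EtOH lay 0.226 apart in the median chaperone gene (absolute log2 difference) and those of control DHT 0.192, against 0.058 to 0.106 in the other groups.

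Levels of the 44 genes spanned more than 4 orders of magnitude. Exon length was taken as the union of all annotated exons of a gene, so ranks between genes depend on the annotation. Given as the mean normalized count per kb of exon over all samples, HSP90AB1 (22382) and HSP90AA1 (15567), the constitutive and the inducible cytosolic HSP90, and HSPA8 (19904), the constitutive HSP70 also known as HSC70, stood highest. Their ranges over the 12 samples overlapped, from 18454 to 26508 per kb for HSP90AB1, 15803 to 23415 for HSPA8 and 12613 to 20275 for HSP90AA1. HSPD1 (HSP60, 4924), HSPB1 (HSP27, 4698) and DNAJA1 (the cytosolic type A HSP40, 4324) followed, and their ranges also overlapped. HSPA8, HSP90AA1, HSP90AB1 and HSPD1 together held 67.3% to 72.8% of the counts of the whole set.

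The remaining HSP70 genes ranged from HSPA1B (1265 per kb) and mitochondrial HSPA9 (mortalin, 1169) through ribosome-associated HSPA14 (463) and microsomal HSPA13 (411) to HSPA12A (16.1), HSPA1A (8.73) and HSPA2 (0.720). In the HSP110 group, HSPA4 stood at 1923, HSPH1 at 1736 and HSPA4L at 101 per kb, and mitochondrial HSP90, TRAP1, at 501. HSPE1, the HSP10 partner of HSPD1, read 1149. The other small heat shock genes were HSPB8 (86.5) and CRYAB (alpha B crystallin, 55.9). HSPB11 (402), an older symbol of IFT25, was listed with them by its name only. Among type A and B HSP40 genes, DNAJA2 (681) and mitochondrial DNAJA3 (552) exceeded DNAJB12 (366), DNAJB2 (343), stress-inducible DNAJB1 (318), DNAJB6 (169), DNAJB4 (155), DNAJB14 (89.3), DNAJB5 (76.7) and DNAJA4 (2.46). Type C genes ran from the splicing-associated DNAJC8 (1159) and the cysteine string protein DNAJC5 (804) through DNAJC7 (268), endosomal DNAJC13 (165), ribosome-associated DNAJC2 (137), DNAJC21 (120), DNAJC16 (96.9) and DNAJC9 (82.5), a histone chaperone, to mitochondrial DNAJC15 (50.8). ST13, the HSP70-interacting protein HIP, read 2710, HSPBP1 460, HSF1 484 and HSF2 293. HSPA1A, HSPA2 and DNAJA4 were the 3 genes with a mean normalized count under 100, and HSPA2 never had more than 11 counts and received no adjusted p.

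**Figure D1:**
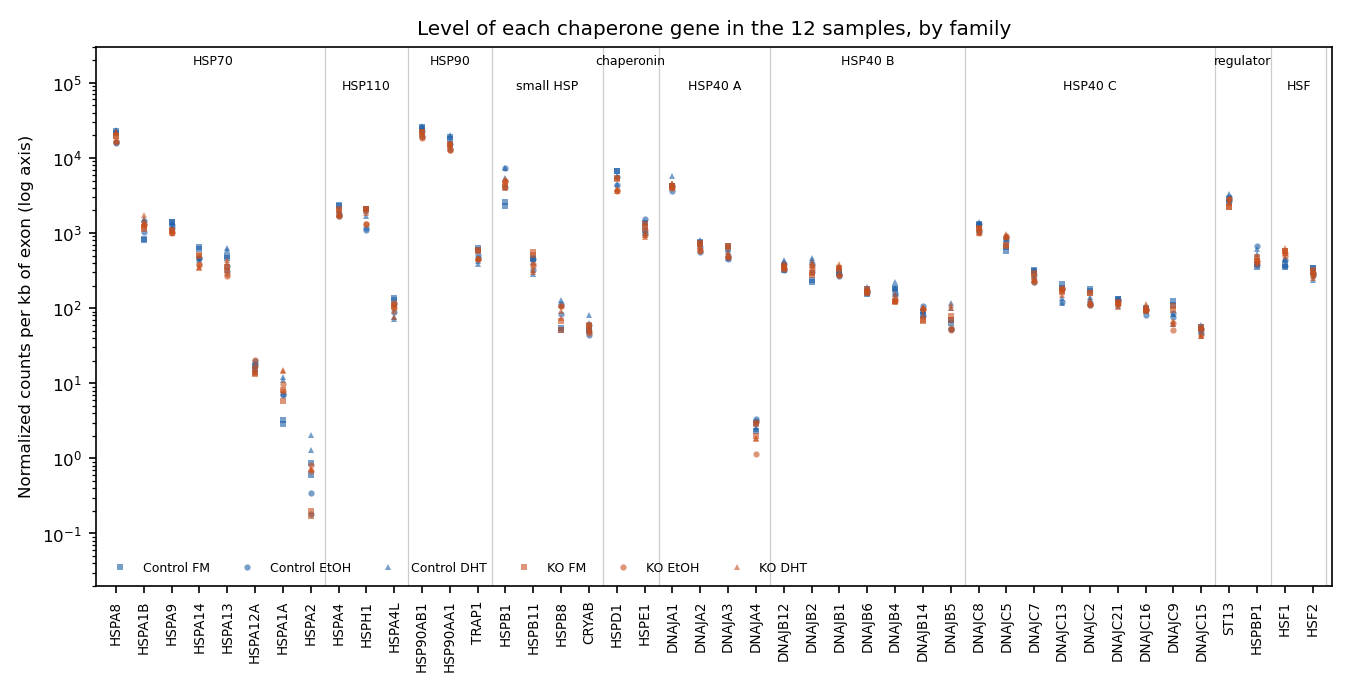
Normalized counts per kb of exon (log axis) of each of the 44 chaperone genes, grouped by family along the x axis, with 1 symbol per sample (squares FM, circles EtOH, triangles DHT; blue control, orange KO). HSP90AB1, HSPA8 and HSP90AA1 lie at 12613 per kb or more in every sample, and HSPA2 and DNAJA4 lie lowest, reaching at most 2.02 and 3.32 per kb.

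HSPA1A and HSPA1B encode nearly the same inducible HSP70 protein, and 73.7% of the 50-base words of HSPA1A also occur in HSPA1B. Reads that align to several places are left out by the counting, so levels of this pair are uncertain. Between 15.9% and 20.0% of all tallied alignments in a sample were not unique. Shared words were also found for ST13 (28.5%), HSP90AB1 (16.6%), DNAJC9 (15.4%), HSPE1 (12.6%), HSP90AA1 (11.6%) and HSPA8 (8.23%), while 33 of the 44 genes had under 5%.

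Several abundant members and members that moved are introduced by 250 bases before a transcription start, because the letters bound by heat shock factors, inverted GAA blocks, lie in some of these windows and not in others. Of the 44 genes, 40 had 57 windows between them in the RefSeq promoter table (GRCh38.p14), since a gene can have several starts. DNAJB1 and HSP90AB1 had 3 windows each and HSPD1 and HSP90AA1 had 2 each, and the 1 printed for each of these genes is the only one of them that holds either string marked here. Capitals mark GAANNTTC or TTCNNGAA, 2 blocks of the heat shock element, each of which reads the same on both strands.
HSPA8 (chr11:123062137-123062386, minus strand): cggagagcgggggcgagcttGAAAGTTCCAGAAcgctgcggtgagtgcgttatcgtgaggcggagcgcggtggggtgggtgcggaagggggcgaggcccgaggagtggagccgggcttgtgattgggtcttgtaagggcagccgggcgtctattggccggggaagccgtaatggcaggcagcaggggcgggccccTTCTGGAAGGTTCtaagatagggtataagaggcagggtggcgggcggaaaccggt
HSPD1 (chr2:197499841-197500090, minus strand): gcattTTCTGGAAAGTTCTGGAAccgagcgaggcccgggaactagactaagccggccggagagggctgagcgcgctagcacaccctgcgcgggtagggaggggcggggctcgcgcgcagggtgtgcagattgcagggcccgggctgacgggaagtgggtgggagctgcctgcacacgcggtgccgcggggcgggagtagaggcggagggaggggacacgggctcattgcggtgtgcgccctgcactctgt
HSP90AA1 (chr14:102087045-102087294, minus strand): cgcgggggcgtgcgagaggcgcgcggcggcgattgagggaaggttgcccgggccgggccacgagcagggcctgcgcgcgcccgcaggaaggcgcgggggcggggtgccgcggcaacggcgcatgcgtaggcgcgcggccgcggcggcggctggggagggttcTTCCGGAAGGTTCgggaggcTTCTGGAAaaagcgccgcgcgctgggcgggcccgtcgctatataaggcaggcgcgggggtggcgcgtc
HSP90AB1 (chr6:44247693-44247942, plus strand): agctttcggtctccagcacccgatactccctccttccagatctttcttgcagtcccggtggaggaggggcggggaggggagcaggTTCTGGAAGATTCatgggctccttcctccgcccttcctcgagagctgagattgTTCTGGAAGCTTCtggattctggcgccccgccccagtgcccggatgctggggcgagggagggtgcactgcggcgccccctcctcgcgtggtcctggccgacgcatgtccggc
DNAJB1 (chr19:14518398-14518647, minus strand): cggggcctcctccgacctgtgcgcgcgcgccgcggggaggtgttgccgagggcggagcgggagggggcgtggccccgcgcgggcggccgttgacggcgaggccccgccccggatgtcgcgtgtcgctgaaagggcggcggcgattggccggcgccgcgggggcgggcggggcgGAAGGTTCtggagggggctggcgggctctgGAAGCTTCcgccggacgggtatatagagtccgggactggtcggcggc
HSPH1 (chr13:31162389-31162638, minus strand): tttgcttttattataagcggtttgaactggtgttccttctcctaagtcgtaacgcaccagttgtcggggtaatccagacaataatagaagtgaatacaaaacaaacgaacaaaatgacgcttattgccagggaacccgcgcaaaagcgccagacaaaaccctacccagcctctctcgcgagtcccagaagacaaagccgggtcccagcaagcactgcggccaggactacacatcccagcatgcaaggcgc
HSPA13 (chr21:14383147-14383396, minus strand): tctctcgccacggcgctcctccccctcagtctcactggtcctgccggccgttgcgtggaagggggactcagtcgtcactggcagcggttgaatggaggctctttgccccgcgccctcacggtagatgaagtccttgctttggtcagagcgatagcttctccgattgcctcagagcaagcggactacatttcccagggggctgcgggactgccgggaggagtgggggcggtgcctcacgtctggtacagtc
DNAJB5 (chr9:34990040-34990289, plus strand): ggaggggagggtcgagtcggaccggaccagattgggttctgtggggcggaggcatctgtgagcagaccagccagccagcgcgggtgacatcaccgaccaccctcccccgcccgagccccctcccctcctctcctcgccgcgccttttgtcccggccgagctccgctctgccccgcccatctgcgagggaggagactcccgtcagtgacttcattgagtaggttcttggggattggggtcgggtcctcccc
HSPB1 (chr7:76302423-76302672, plus strand): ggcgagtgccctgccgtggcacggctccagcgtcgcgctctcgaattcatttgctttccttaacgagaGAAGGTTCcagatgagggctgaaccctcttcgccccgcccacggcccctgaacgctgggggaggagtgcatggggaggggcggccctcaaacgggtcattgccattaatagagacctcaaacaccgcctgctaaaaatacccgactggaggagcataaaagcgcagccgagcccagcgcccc
HSPB8 (chr12:119178681-119178930, plus strand): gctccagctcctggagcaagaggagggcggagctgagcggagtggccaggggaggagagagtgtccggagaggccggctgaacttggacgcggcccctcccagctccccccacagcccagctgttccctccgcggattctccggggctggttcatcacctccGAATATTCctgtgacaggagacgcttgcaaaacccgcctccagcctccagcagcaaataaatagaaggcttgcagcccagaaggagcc

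The 3-block string, GAANNTTC followed by NNGAA and searched on both strands, was found in windows of 5 members, HSPA8, HSPD1, HSP90AA1, HSP90AB1 and DNAJB6, in 5 of the 57 member windows (8.77%) and in 0.441% of all 35116 promoter windows. GAANNTTC was found in 12 member windows (21.1%) and in 5.78% of all windows, and TTCNNGAA in 8 member windows (14.0%) and in 6.62% of all windows. Both shorter strings overlap the 3-block string. The printed windows of HSPH1, HSPA13 and DNAJB5 hold neither shorter string. The palindrome of an androgen response element, AGAACA and TGTTCT with any 3 bases between them, was in no member's window and in 0.00285% of all windows. A match or its absence describes only these 250 bases.

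**Figure D2:**
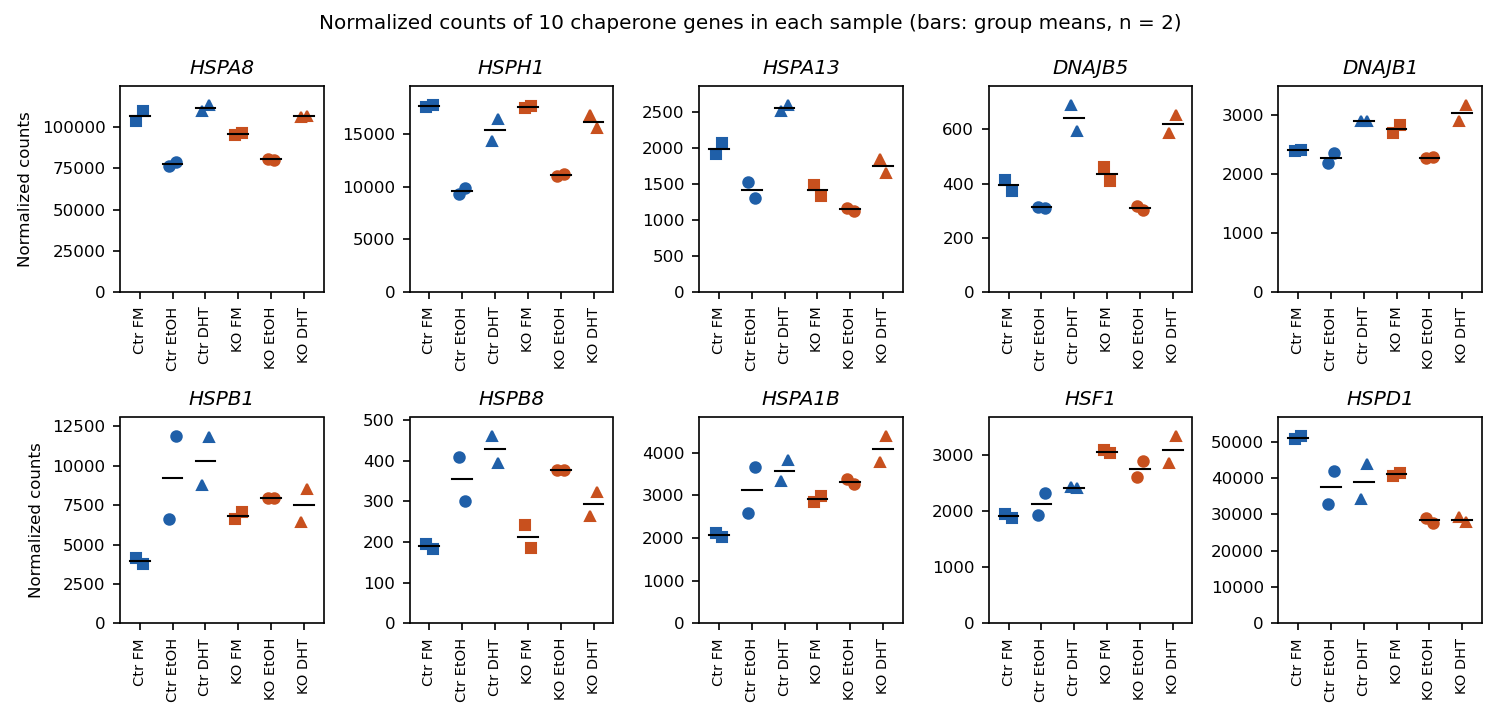
Normalized counts of 10 chaperone genes in each of the 12 samples (y axes from 0), by line and condition on the x axis, with bars at the group means (n = 2). HSPA8, HSPH1, HSPA13 and DNAJB5 stand higher in DHT than in EtOH in both lines, the means of HSPB1 and HSPB8 are lowest in control FM, and HSF1 is higher in KO than in control in every condition.

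With DHT, HSPH1, HSPA13 and DNAJB5 rose 1.61-fold, 1.81-fold and 2.06-fold in control cells and passed the threshold of an adjusted p of at most 0.05 and a 1.5-fold change. The abundant HSPA8, which binds the androgen receptor early in its folding, was 1.44-fold higher at the adjusted p alone. Those past the threshold were 3 of 43 tested members (6.98%), against 11.4% of all tested genes. At the adjusted p alone 13 of 43 members differed (30.2%, against 19.9% of all tested genes), 11 higher (11.2% of all tested genes) and 2 lower (8.75%). Among genes with a mean of at least 100 normalized counts, which holds 41 members, 26.8% of the members and 15.5% of all such genes were higher at the adjusted p alone. The median of the 43 members was 0.15 (log2) with 32 above 0, and the median of all genes at or above that mean was 0.02. Lower counts in bulk RNA can reflect fewer cells of a kind or less RNA per cell, and these cannot be told apart here.

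HSPA13 encodes a microsomal HSP70-like ATPase (ENSG00000155304, GRCh37 chr21:15743436-15755805, minus strand). In the control line it had 1911.6 and 2067.0 in FM, 1520.7 and 1299.1 in EtOH, and 2502.7 and 2596.4 in DHT normalized counts. The KO line had 1484.9 and 1335.0 in FM, 1171.0 and 1121.8 in EtOH, and 1840.3 and 1653.4 in DHT. Its DHT values lay above its EtOH values in both lines, with no overlap. The increase was 0.85 (log2, SE 0.12, DESeq2 adjusted p = 4.47e-11) in control and 0.61 (SE 0.12, adjusted p = 1.37e-05) in KO. The KO call was lost, at 0.58 and 0.53, when KO EtOH replicate 2 or KO DHT replicate 1 was left out.

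DNAJB5, a cytosolic type B HSP40 (ENSG00000137094, GRCh37 chr9:34989638-34998897, plus strand), had the largest DHT response among members past the threshold. Its control samples read 414.1 and 373.5 in FM, 315.0 and 309.4 in EtOH, and 690.5 and 595.1 in DHT normalized counts. The KO samples read 459.8 and 408.8 in FM, 316.5 and 304.0 in EtOH, and 584.9 and 651.4 in DHT. In both lines DHT lay above FM and FM above EtOH. DNAJB5 rose by 1.04 (log2, SE 0.15, DESeq2 adjusted p = 8.65e-11) in control and by 0.99 (SE 0.15, adjusted p = 1.06e-09) in KO. It passed in both lines under each of the 12 alternatives, of which dropping the fold minimum could not remove a call. The difference between the lines' responses was -0.05, with a 95% interval of -0.46 to 0.36.

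HSPH1, the HSP110 nucleotide exchange factor (ENSG00000120694, GRCh37 chr13:31709110-31736525, minus strand), was low in EtOH in both lines. In control cells it read 17538.0 and 17763.2 in FM, 9281.1 and 9845.7 in EtOH, and 14343.0 and 16424.9 in DHT normalized counts. In KO cells it read 17435.1 and 17659.1 in FM, 11028.7 and 11193.3 in EtOH, and 16761.9 and 15571.9 in DHT. No EtOH value reached any DHT or FM value. The DHT difference was 0.69 (log2, SE 0.10, DESeq2 adjusted p = 1.06e-10) in control and 0.54 (SE 0.10, adjusted p = 1.03e-06) in KO, the latter under the fold minimum. Without control DHT replicate 2 the control value was 0.58 and no longer passed the fold minimum. In KO it passed, at 0.59, without KO DHT replicate 2.

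HSPA8 (ENSG00000109971, GRCh37 chr11:122928197-122933938, minus strand) gained more counts with DHT in control cells than any other member. Control cells had 103896.0 and 110026.2 in FM, 76630.4 and 78584.5 in EtOH, and 109852.8 and 113537.7 in DHT normalized counts. KO cells had 95198.6 and 96378.8 in FM, 80866.4 and 80150.6 in EtOH, and 106306.2 and 106726.5 in DHT. EtOH values were the lowest in both lines, with no overlap. Its DHT difference of 0.53 (log2, SE 0.08, DESeq2 adjusted p = 1.48e-09) in control, or 1.44-fold, and of 0.40 (SE 0.08, adjusted p = 1.04e-05) in KO stayed under the fold minimum. The HSP40 partner DNAJB1 was also higher in DHT, but its control FM values lay nearer to EtOH than to DHT, unlike those of HSPA8. DNAJB1 had 2393.1 and 2412.3 in FM, 2181.1 and 2351.5 in EtOH, and 2890.4 and 2902.1 in DHT in control. In KO it had 2691.8 and 2826.6 in FM, 2265.2 and 2284.0 in EtOH, and 2906.1 and 3174.3 in DHT. Both DHT replicates exceeded both EtOH replicates in each line, by 0.35 (SE 0.10, adjusted p = 0.00265) in control and 0.42 (SE 0.10, adjusted p = 0.000335) in KO.

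The cytosolic HSP90 genes had smaller differences. HSP90AA1 read 91495.4 and 96819.1 in FM, 66614.7 and 77967.8 in EtOH, and 82575.1 and 103340.6 in DHT normalized counts in control. The KO line read 75083.8 and 78285.7 in FM, 65074.5 and 64288.6 in EtOH, and 77516.6 and 73083.6 in DHT. DHT against EtOH gave 0.36 (log2, SE 0.12, DESeq2 adjusted p = 0.0197) in control and 0.22 (SE 0.12, adjusted p = 0.288) in KO. HSP90AB1 had 77734.3 and 75261.5 in FM, 58086.4 and 68862.2 in EtOH, and 70237.1 and 78994.3 in DHT in control. It had 66620.4 and 66608.6 in FM, 56412.8 and 54993.4 in EtOH, and 62543.3 and 64037.7 in DHT in KO. Its DHT differences, 0.23 in control (adjusted p = 0.112) and 0.18 in KO (adjusted p = 0.312), did not pass.

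The other members higher with DHT at the adjusted p alone in control cells were the HSP40 genes DNAJA1 (0.38, log2), DNAJA2 (0.32), DNAJB2 (0.39) and DNAJB4 (0.40) and the small heat shock gene CRYAB (0.50, and 0.46 with an adjusted p of 0.0583 after GC adjustment). TRAP1 (-0.26) and HSPA4L (-0.45) were lower. All 7 type B HSP40 genes had positive fold changes in control in the DESeq2 fit, with a median of 0.35. In KO 5 of the 7 were positive, with a median of 0.14. Of all genes with a mean of at least 100, 52.2% were positive in control and 51.9% in KO. The inducible pair did not pass in either line. HSPA1B read 2114.8 and 2032.9 in FM, 2595.0 and 3657.6 in EtOH, and 3326.5 and 3827.1 in DHT normalized counts in control. KO read 2851.3 and 2992.1 in FM, 3372.9 and 3261.8 in EtOH, and 3782.2 and 4383.5 in DHT. Control EtOH replicate 2 overlapped the DHT range, and the DHT difference was 0.19 (adjusted p = 0.437) in control and 0.30 (adjusted p = 0.211) in KO. HSPA1A read 7.7 and 6.8 in FM, 17.1 and 16.9 in EtOH, and 29.3 and 26.2 in DHT in control. KO had 14.0 and 19.7 in FM, 19.2 and 23.5 in EtOH, and 35.5 and 35.9 in DHT. Its counts were highest in DHT in both lines, at 0.71 (SE 0.48, adjusted p = 0.359) and 0.73 (SE 0.46, adjusted p = 0.375).

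In KO cells, 2 of 43 members passed for DHT against EtOH (4.65%, against 7.68% of all tested genes), HSPA13 and DNAJB5. HSPA8, HSPH1 and DNAJB1 were added at the adjusted p alone, making 5 of 43 (11.6%, against 13.6%). The control and KO responses share no sample. Over the 41 members with a mean of at least 100, their log2 fold changes had a Pearson r of 0.84 and a Spearman rho of 0.76, and 33 had the same sign (80.5%, against 82.3% of all genes with such a mean). These points come from the same libraries and are given as a description.

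**Figure D3:**
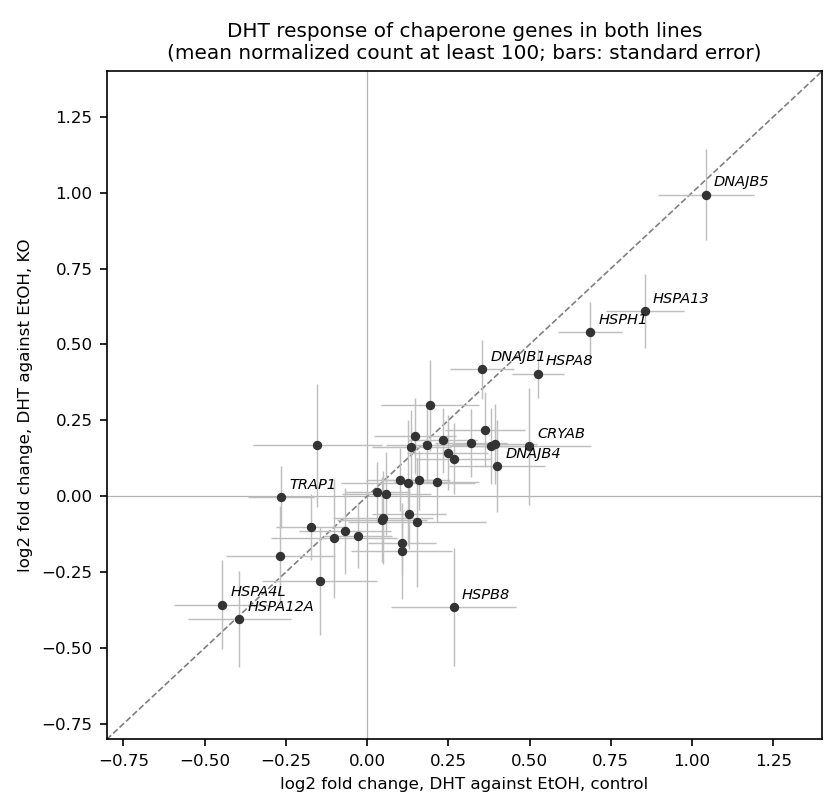
Log2 fold change for DHT against EtOH in control (x axis) and in KO (y axis) of the 41 chaperone genes with a mean of at least 100 normalized counts, with standard errors as bars and the line of equal response dashed. DNAJB5, HSPA13, HSPH1, HSPA8 and DNAJB1 lie at the upper right, and HSPB8 is positive in control (0.27) and negative in KO (-0.37).

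No member passed when the lines' DHT responses were set against each other, with 0 of 41 tested by DESeq2 against 0.408% of all tested genes. At an unadjusted p under 0.05 there was 1, HSPB8, and edgeR called 0 with 2 at that unadjusted p. HSPB8, a small heat shock protein that partners with BAG3, had 195.5 and 183.8 in FM, 410.1 and 301.4 in EtOH, and 460.4 and 395.4 in DHT normalized counts in control. In KO it had 241.6 and 185.2 in FM, 377.5 and 378.3 in EtOH, and 263.8 and 323.7 in DHT. DHT lay above FM in both lines, and in KO both DHT values lay below both EtOH values. The difference in DHT response was -0.63 (log2, SE 0.27, adjusted p = 0.845). Of the 41 members, 32 had a smaller or more negative response in KO, against 52.0% of all genes with a mean of at least 100, and the median difference was -0.10 against -0.01 for those genes. The median was -0.03 without control DHT replicate 2, -0.04 without control EtOH replicate 1, and -0.18 without either control EtOH replicate 2 or control DHT replicate 1. That count ran from 25 without control EtOH replicate 1 and 26 without control DHT replicate 2 to 32 under other settings. The 95% interval lay within 1.5-fold either way for 33 of the 41, so a larger difference was outside the interval for those members and not for the other 8.

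KO cells did not differ from control in EtOH in any member by the threshold. DESeq2 called 0 of 43 (5.11% of all tested genes), with 7 at an unadjusted p under 0.05, and edgeR called 0 with 7. At the adjusted p alone HSPD1 was lower and HSF1 higher (4.65% of members, against 9.81%). In DHT DESeq2 again called 0 of 43 (against 7.98%), with 17 at an unadjusted p under 0.05, and edgeR called 0 with 16. Here 7 of 43 passed the adjusted p alone (16.3%, against 16.4%), 1 higher (against 7.63%) and 6 lower (against 8.73%). HSF1 was higher, and HSPA9, HSPD1, HSPB8, HSPA13, DNAJB4 and HSPA14 were lower. The median over members was -0.16 with 11 of 43 above 0, and -0.04 over all genes with a mean of at least 100. Without control DHT replicate 1, more of all genes passed, and CRYAB, DNAJB4, HSPB1 and HSPD1 then passed as lower.

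Among the mitochondrial chaperone genes, HSPD1 and HSPA9 were lower in KO at the adjusted p alone in DHT. HSPD1 (ENSG00000144381, GRCh37 chr2:198351308-198381461, minus strand), the subunit of the HSP60 chamber, had 50655.9 and 51465.7 in FM, 32837.3 and 41982.0 in EtOH, and 34219.5 and 43739.8 in DHT normalized counts in control. In KO it had 40544.8 and 41480.1 in FM, 28987.4 and 27747.0 in EtOH, and 29197.8 and 27899.8 in DHT. All KO values lay below all control values within each condition. The differences were -0.40 in EtOH (log2, SE 0.14, DESeq2 adjusted p = 0.0386, and 0.0694 after GC adjustment), -0.45 in DHT (SE 0.14, adjusted p = 0.00997) and -0.32 in FM (SE 0.14, adjusted p = 0.0864), and the fold minimum was not reached in any. HSPA9, the mitochondrial HSP70, was lower by 0.30 in DHT (adjusted p = 0.0219) and by 0.35 in FM (adjusted p = 0.0061), which after adjustment for GC content, described below, was -0.18 (adjusted p = 0.205). HSPE1, the lid of the HSP60 chamber, did not pass in any condition. It read 2023.1 and 2471.6 in FM, 1829.0 and 2829.0 in EtOH, and 1820.3 and 2519.8 in DHT in control. KO gave 2375.6 and 2189.9 in FM, 2001.8 and 1706.2 in EtOH, and 1741.9 and 1625.5 in DHT, with overlap between the lines in FM and EtOH. TRAP1 and DNAJA3, the mitochondrial HSP90 and HSP40, did not differ at the adjusted p in any of the 3 conditions.

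HSF1, the main heat shock factor, was the member whose KO values stood above control in all conditions at the adjusted p alone. Control cells had 1962.4 and 1879.2 in FM, 1931.8 and 2335.6 in EtOH, and 2431.1 and 2411.8 in DHT normalized counts. KO cells had 3096.6 and 3041.5 in FM, 2613.3 and 2902.3 in EtOH, and 2860.1 and 3342.7 in DHT. No KO value overlapped a control value of its condition. The differences were 0.37 in EtOH (log2, SE 0.12, DESeq2 adjusted p = 0.0333), 0.36 in DHT (SE 0.12, adjusted p = 0.029) and 0.68 in FM (SE 0.13, adjusted p = 3.3e-06), with the fold minimum passed in FM. HSF2, its relative, did not pass in any condition.

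In FM, 2 of 42 members passed for KO against control (4.76%, against 8.01% of all tested genes), HSF1 and HSPB1, both higher. HSPB1, the small heat shock protein HSP27 (ENSG00000106211, GRCh37 chr7:75931990-75933612, plus strand), had 4143.5 and 3767.2 in FM, 6617.5 and 11872.9 in EtOH, and 8772.2 and 11792.9 in DHT normalized counts in control. KO had 6636.2 and 7042.0 in FM, 7939.5 and 7947.5 in EtOH, and 6451.9 and 8522.0 in DHT. The lowest values were the control FM pair, and the control EtOH replicates lay 0.84 apart (log2). The FM difference was 0.79 (SE 0.21, adjusted p = 0.00314). In DHT it was -0.46 (adjusted p = 0.129) and in EtOH -0.22 (adjusted p = 0.644). The FM call was lost without control FM replicate 2 (0.72, adjusted p = 0.0978) and without KO FM replicate 2 (0.75, adjusted p = 0.0801). At the adjusted p alone 8 of 42 members differed (19.0%, against 18.5%), with HSPA1B also higher (0.49) and HSPA13 (-0.50), DNAJB4 (-0.58), HSPA9 (-0.35), HSPA14 (-0.32) and ST13 (-0.28) lower.

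**Figure D4:**
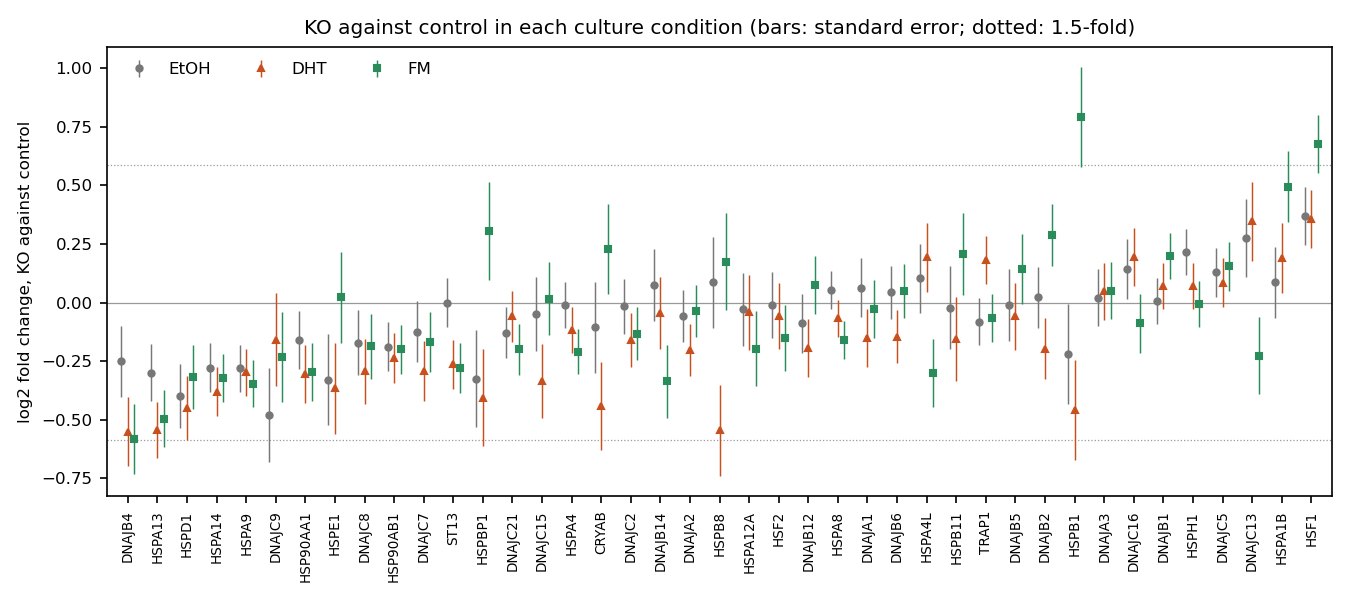
Log2 fold change, KO against control, of the 41 chaperone genes with a mean of at least 100 normalized counts in EtOH (grey circles), DHT (orange triangles) and FM (green squares), with standard errors as bars and 1.5-fold changes as dotted lines. HSF1 and HSPB1 in FM lie above the upper line (0.68 and 0.79), and no gene lies below the lower line.

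HSPA13, DNAJB4 and HSPA14 were lower in KO at the adjusted p alone in DHT (-0.55, -0.55 and -0.38, log2) as well as in FM, where HSPA14 was -0.10 (adjusted p = 0.583) after GC adjustment. The comparisons of KO with control in EtOH, DHT and FM share no sample. Member fold changes in EtOH and DHT had a Pearson r of 0.73 with 34 of 41 of the same sign (82.9%, against 80.4% of all genes with a mean of at least 100). Between DHT and FM r was 0.20 with 25 of 41 of the same sign (61.0%, against 61.6%), and between EtOH and FM it was 0.33 with 26 of 41 (63.4%, against 62.8%).

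The FM differences moved with base composition. Over the 41 members, KO against control in FM had a Spearman rho of 0.70 with the GC content of the transcripts, and over 11228 genes rho was 0.57. In EtOH and DHT the rho of the members was 0.12. Replicates of a single group also differed along GC content, with a rho of -0.63 in control FM and 0.81 in KO DHT. After removal of a smooth GC trend from each sample, an alternative added after the data were seen, no member passed in FM. HSPB1 (65.2% GC) then read 0.31 (adjusted p = 0.174) and HSF1 (63.9% GC) 0.26 (adjusted p = 0.031), with HSPA13 and DNAJB4 still lower at the adjusted p alone (-0.26 and -0.36). HSPA1B, HSPA9, HSPA14 and ST13 no longer passed it. The part of base composition in the unadjusted values was not tested beyond this fit.

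**Figure D5:**
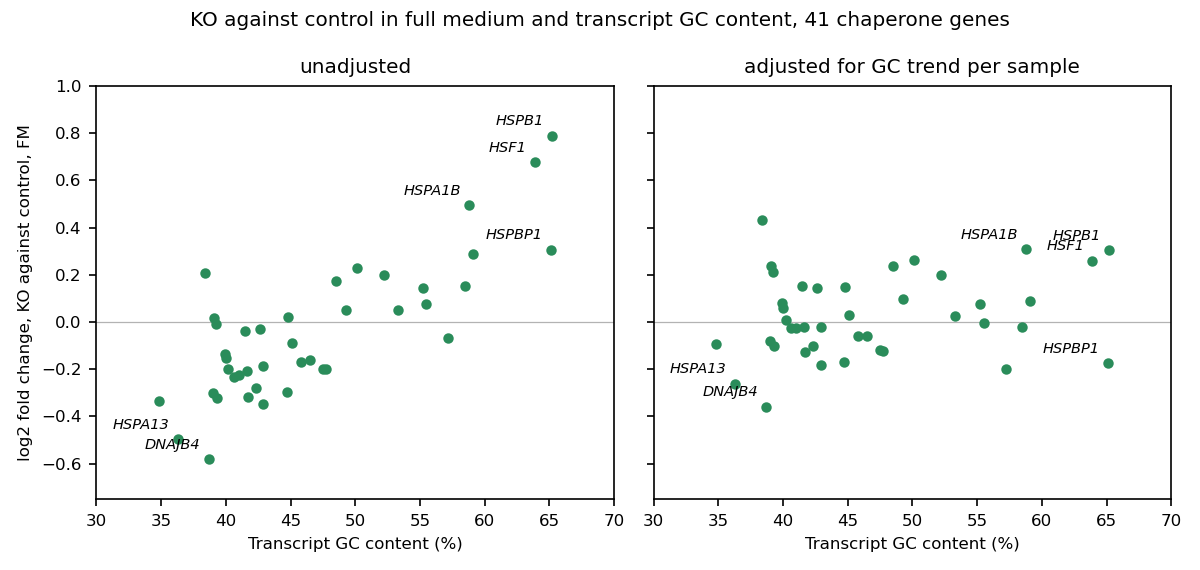
Log2 fold change, KO against control in FM (y axis), against the transcript GC content in percent (x axis) of the 41 chaperone genes with a mean of at least 100 normalized counts, before (left) and after (right) removal of a GC trend from each sample. HSPB1 and HSF1 lie at the upper right before adjustment (0.79 and 0.68) and at 0.31 and 0.26 after it.

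FM against EtOH, which compares full medium with hormone starvation in charcoal-stripped serum, moved more genes of all kinds. Starved cells were also in medium without phenol red and received the vehicle, and the parts of these differences cannot be told apart. In control cells 5 of 43 members passed (11.6%, against 21.3% of all tested genes), with HSPH1 and DNAJC2 higher and HSPB1, HSPB8 and HSPA1B lower in FM. At the adjusted p alone 15 were higher (34.9% of members, against 18.8%) and 6 lower (14.0%, against 16.2%), together 21 of 43 (48.8%, against 34.9%, and 51.2% against 47.2% among genes with a mean of at least 100). After GC adjustment 8 were higher and 7 lower in control, and the median over members was 0.02 with 22 of 43 above 0, in place of 0.16 with 28. In KO cells 3 of 43 passed (6.98%, against 19.3%), HSPH1 and DNAJC9 higher and HSPB8 lower, and 15 were higher (34.9%, against 17.3%) and 5 lower (11.6%, against 14.4%) at the adjusted p alone, together 20 of 43 (46.5%, against 31.7%). After GC adjustment 12 were higher and 6 lower in KO, with a median of 0.15 both before and after. These comparisons share their EtOH samples with those for DHT.

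HSPH1 was higher in FM by 0.88 (log2, SE 0.10, DESeq2 adjusted p = 9.77e-18) in control and by 0.66 (SE 0.10, adjusted p = 3.29e-10) in KO, from the values given above. After GC adjustment it was 0.61 in control, and in KO 0.58, under the fold minimum. HSPB8 was lower in FM in both lines, by 0.91 (SE 0.20, adjusted p = 4.39e-05) in control and 0.82 (SE 0.20, adjusted p = 0.000239) in KO. It passed under each of the 12 alternatives, of which dropping the fold minimum could not remove a call. HSPB1 was lower in control FM by 1.23 (SE 0.21, adjusted p = 1.15e-07), a value that was -0.74 without control EtOH replicate 2 and -0.66 after GC adjustment. In KO it was lower by 0.22 (adjusted p = 0.494). The difference between these responses was 1.01 (SE 0.30, 95% interval 0.42 to 1.60, adjusted p = 0.051).

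HSPA1B was lower in control FM by 0.59 (log2, SE 0.15, DESeq2 adjusted p = 0.000528), just past the fold minimum. With the replicate number as a block it was -0.58 and no longer passed, and it also lost the call without control FM replicate 2 (-0.56), without control EtOH replicate 2 (-0.32) and after GC adjustment (-0.42). HSPA1A read -1.23 (SE 0.59, adjusted p = 0.0908) in the same comparison.

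DNAJC2, which binds ribosomes, had 1194.9 and 1149.7 in FM, 742.3 and 785.8 in EtOH, and 897.5 and 940.1 in DHT normalized counts in control. In KO it had 1061.4 and 1075.2 in FM, 739.2 and 770.8 in EtOH, and 867.3 and 776.9 in DHT. FM was highest and did not overlap the other conditions in either line. It was higher in FM by 0.62 (log2, SE 0.12, DESeq2 adjusted p = 7.99e-07) in control and 0.50 (SE 0.12, adjusted p = 0.000106) in KO, and the control call was lost without control EtOH replicate 1 (0.58) and after GC adjustment (0.36). DNAJC9, which carries histones, read 354.5 and 404.6 in FM, 277.9 and 242.7 in EtOH, and 196.9 and 271.3 in DHT in control. KO read 344.2 and 301.4 in FM, 165.0 and 207.0 in EtOH, and 218.6 and 200.2 in DHT. FM values were the highest in each line. It was higher in FM by 0.79 (SE 0.20, adjusted p = 0.00044) in KO and by 0.55 (SE 0.19, adjusted p = 0.017) in control, where it was 0.30 (adjusted p = 0.18) after GC adjustment. Its exons overlap a gene on the opposite strand over 56.5% of their bases, and the strand setting of the counting is not given in the sources used here. The same overlap was 41.9% for TRAP1 and 21.1% for DNAJC2, and lower for the other members. HSPA1B exons overlap a gene on the same strand over 36.6% of their bases. Counts of these genes are uncertain to that extent.

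In both lines HSPA8, HSPA4, HSPA13, HSPA14, HSP90AB1, TRAP1, HSPD1, DNAJA2 and DNAJA3 were higher in FM than in EtOH at the adjusted p alone, by 0.25 to 0.53 (log2), and DNAJC5 was lower (-0.42 in control, -0.39 in KO). After GC adjustment DNAJA2 (0.06), HSP90AB1 (0.16), HSPA14 (0.18), HSPA13 (0.21) and HSPD1 (0.22) no longer passed in control, and HSPA4 (0.16), HSP90AB1 (0.18) and DNAJA2 (0.23) no longer passed in KO. At the adjusted p alone HSP90AA1, HSPA4L and DNAJC7 were higher and DNAJB2 and HSPBP1 lower in control (HSPBP1 -0.51, and 0.05 after GC adjustment, which left DNAJB2 alone of these 5 past the adjusted p), and DNAJB1, DNAJB5 and HSPB11 were higher and ST13, HSPA12A and DNAJB14 lower in KO, of which HSPB11 no longer passed after GC adjustment. DESeq2 called 0 of 41 members for the difference between the FM responses (1.39% of all tested genes), with 4 at an unadjusted p under 0.05, HSPB1, HSPBP1, DNAJC13 and HSPA4L. edgeR called 0 with 5. HSPB1 passed in 4 other settings. Without control EtOH replicate 1, more members and more of all genes passed.

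The whole set held 1.48% ± 0.06 (SD, n = 2) of gene counts in control EtOH, 1.67% ± 0.10 in control DHT and 1.76% ± 0.02 in control FM. In KO it held 1.45% ± 0.01, 1.59% ± 0.03 and 1.63% ± 0.01. Its lowest share was in EtOH in both lines.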

How the data were processed

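RNA-seq counts of 12 samples in 6 groups were used, grouped by GEO's labels. The authors prepared TruSeq stranded poly(A) libraries, sequenced them on a HiSeq1500, processed reads with CASAVA (1.7), mapped them to GRCh37 with TopHat2 (2.0.11) and assigned them to Ensembl genes with HTSeq (0.5.3p3), without pooling replicates, and the counts were used as deposited. Versions are from the submitters' processing notes. The Ensembl release and strand setting are not given in the sources used here. The labels and the methods name different RNA extraction kits. The 5 HTSeq tally rows, 26.9% to 31.5% of each file's total, were left out.

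Symbols came from a GENCODE annotation lifted to GRCh37 (55665 of 63677 identifiers), with 1 member matched by an older symbol. Genes with fewer than 10 summed counts were removed. DESeq2 (1.42.0, R 4.3.3) was fitted to all samples with 1 coefficient for each group, its default size factors, and Wald tests with Benjamini-Hochberg adjustment over all tested genes. The study's methods name DESeq2 and leave its settings unstated. A gene passed at an adjusted p of at most 0.05 and a fold change of at least 1.5. Intervals are 95% Wald intervals. Alternatives were edgeR (4.0.16) with quasi-likelihood tests and TMM, TMM size factors in DESeq2, no filter, at least 10 counts in every sample, the replicate number as a block, only the groups compared, no fold minimum, and leaving out single replicates. The GC adjustment was added after the data were seen. Scripts were tested on simulated counts. Replicates of each group differed beyond sampling noise (chi-square per degree of freedom 3.19 to 36.5), and each was counted as 1 sample. This excess does not show whether they came from separate cultures.

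The members, gene lists and tests were chosen with earlier results of these data known. By rule, every member was named with its level, and full values were given for members passing in at least 1 of 9 comparisons and for HSPA8, HSPA1A, HSPA1B, HSP90AA1, HSP90AB1, HSPB1, HSPD1, HSPE1, DNAJB1 and HSF1. Promoter windows were credited to RefSeq (GRCh38.p14), a different build from that of the counts, and were matched by symbol. They were not used in any test.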

Additional observations from a re-analysis of the deposited data

Results flagged for a closer look

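In 2 members FM against EtOH differed in opposite directions in the lines in every sample, which drew attention to them. HSPA2, a testis-enriched HSP70, had fitted log2 fold changes of 1.497 in control and -2.03 in KO, a difference of -3.53. It had 1 to 11 counts per sample and received no adjusted p, so the difference was not tested. DNAJC13, an endosomal HSP40, had 0.38 in control and -0.12 in KO. Its difference was -0.50, with a DESeq2 adjusted p of 0.274, which did not pass. The control EtOH replicates of DNAJC13, 1753.8 and 1178.7 normalized counts, lay further apart than those of any other group for this gene.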

How the results depend on the processing

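Of the 17 gene and comparison pairs past the threshold, BAG1 included, 189 values under alternatives stayed past it in the same direction and 15 lost it. The 189 include 17 values from dropping the fold minimum, which could not remove a call. Losses came from leaving out a replicate (9), GC adjustment (5) and the replicate block (1). edgeR, TMM size factors and both other count filters lost none. Of 61 pairs past the adjusted p but not the fold minimum, 20 lost the adjusted p after GC adjustment, 10 of them for FM in control, and 1 of these reversed, HSPBP1 (0.049). With no fold minimum, the members passing numbered 13 for DHT in control, 5 for DHT in KO, 2, 7 and 8 for KO against control in EtOH, DHT and FM, and 21 and 20 for FM in control and KO. After GC adjustment these numbers were, in the same order, 14, 7, 2, 9, 3, 15 and 18, so members were gained as well as lost. With the fold minimum, GC adjustment gave 0 for KO against control in FM and 3 for FM in control, and moved the median of all genes by -0.10 in the latter. For the difference in FM response, 1 member (HSPB1) passed with TMM size factors, at least 10 counts in every sample, or only the groups compared. Over all genes, edgeR called 24 for the difference in DHT response against 55 by DESeq2 and 65 for the difference in FM response against 180, and GC adjustment gave 789 for KO against control in FM against 1202.

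Leaving out 1 replicate at a time gave 2 to 8 members for DHT in control (8 without control EtOH replicate 2), 1 to 3 for DHT in KO (1 without KO EtOH replicate 2 or KO DHT replicate 1), 0 to 1 for the difference in DHT response, 0 to 3 for KO against control in EtOH (3 without control EtOH replicate 1), 0 to 4 in DHT (4 without control DHT replicate 1, 2 without KO DHT replicate 1 and 1 without KO DHT replicate 2) and 1 to 3 in FM (1 without control FM replicate 2 or KO FM replicate 2). It gave 4 to 9 for FM in control (9 without control EtOH replicate 1) and 0 to 6 for the difference in FM response (6 without control EtOH replicate 1). The member passing for the difference in DHT response was HSPB1, without control EtOH replicate 2. Without control EtOH replicate 1, more of all genes passed for KO against control in EtOH, FM in control and the difference in FM response. Without control EtOH replicate 2, more of all genes passed for DHT in control and the difference in DHT response. The same held without control DHT replicate 1 for KO against control in DHT. These rises in member counts were not limited to the chaperone genes. The cause of these gains and losses was not tested.

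Samples sharing a replicate number deviated together in some groups and not in others. Of 15 correlations between groups, 6 exceeded 0.1, the highest 0.69 between control EtOH and control DHT and the lowest -0.42, so the numbers were not taken to pair samples. The statistics for DHT in control therefore take no account of the deviation that its groups share. The replicate block fits the same shift in all groups, so it cannot check pairing within a single comparison. With the replicate block, 1 member (HSPB1) passed for the difference in FM response, HSPA1B lost its call for FM in control (-0.58), and no other member count moved by over 1.5 times. At 2 samples per group and these depths, HSPA2 could not be tested and HSPA1A and DNAJA4 had wide intervals.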

Other observations

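Among 42 other HSP and DNAJ genes, a list that like the others here was chosen with earlier results of these data known, 30 were tested for DHT in control cells and 9 passed, all higher, against 6.04% of all tested genes passing as higher. The other 21 did not pass. The 9 included HSPA5 (BiP, 1.03 on the log2 scale, SE 0.12, DESeq2 adjusted p = 1.57e-17), HSP90B1 (GRP94, 0.95), HYOU1 (1.08) and DNAJB9 (1.42). In KO cells 6 of 30 rose (4.43% of all tested genes), among them DNAJB9 (1.34), HYOU1 (0.90) and DNAJC3 (0.88). None of 27 passed for the difference in DHT response by DESeq2, with 2 at an unadjusted p under 0.05, and edgeR called 0 with 2. For KO against control in EtOH 4 of 29 were lower (2.31% of all tested genes), HSP90B1 (-0.84), DNAJB9 (-0.77), DNAJC1 (-0.70) and DNAJC10 (-0.65). In DHT 8 of 29 were lower (3.32% of all tested genes), HSP90B1 (-1.30), HSPA5 (-0.99), DNAJB9 (-0.85), DNAJB11 (-0.84), HYOU1 (-0.74), DNAJC10 (-0.73), DNAJC25 (-0.72) and DNAJC3 (-0.70), and HSF4 was higher (0.66).

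Among 14 genes of the TRiC chaperonin and prefoldin, which fold actin and tubulin, 2 passed for FM against EtOH in control (21.3% of all tested genes), CCT6A higher (0.61) and PFDN5 lower (-0.70). Of 24 HSP90 and HSP70 cochaperone genes, 2 passed as higher with DHT in control (6.04% of all tested genes) and 1 in KO (4.43%). FKBP5, the androgen-induced immunophilin, rose in both lines (4.02 in control and 4.004 in KO), and BAG3, the partner of HSPB8, rose in control (0.70). For KO against control in DHT 2 of the 24 were lower (3.32% of all tested genes), BAG1 and FKBP5 (-0.59). For FM against EtOH in control 4 were higher (9.81% of all tested genes), FKBP5 (3.63), CHORDC1 (0.72), CLPB (0.70) and GRPEL2 (0.59). FKBP8 was lower (-1.04), against 11.5% of all tested genes.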
